A study of Caenorhabditis elegans with 2 samples.

Results

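The genes described are 8 protein-coding genes of the heterochronic pathway of the nematode Caenorhabditis elegans: lin-14, lin-28, hbl-1, lin-41, lin-42, lin-46, lin-29 and daf-12. They were taken as a fixed list of 8 among the 19973 protein-coding genes annotated on the nuclear chromosomes of the WBcel235 assembly (ce11). For each gene, every summit of UNC-130 occupancy within 5000 bp of the gene body was read from the deposited peak lists. UNC-130 is a forkhead-domain transcription factor. The study mapped it by chromatin immunoprecipitation followed by sequencing (ChIP-seq) in 2 biological replicates of 1 group, whole L1 larvae of both sexes of strain OP77, genotype unc-119(ed3) III; wgIs77. The labels describe wgIs77 as an insertion targeting unc-130 and the precipitated protein as eGFP-unc-130, while the antibody entry reads unc-130. They do not give the promoter that drives the fusion or its copy number. The animals were taken whole, so a summit does not say in which cells the protein was bound. No control library was analysed here, and the lists measure occupancy and not transcription, so neither the stage nor the activity of the genes can be checked in them.

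Heterochronic genes set when larval cells adopt the fates of each larval stage, and are best known from the divisions of the hypodermal seam cells. LIN-14, LIN-28 and HBL-1 act early and are lowered as larvae grow by microRNAs of the lin-4 and let-7 families. LIN-41 follows as a target of let-7, and its loss allows the transcription factor LIN-29 to start the switch to adult hypodermis. LIN-46 acts against HBL-1, LIN-42 is related to the Period proteins of circadian clocks, and DAF-12 is the nuclear receptor that links this timing to the choice between growth and the dauer stage.

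Occupancy was unevenly spread over the 8 genes. The authors derived the optimal list with a threshold on reproducibility. Its 2631 peaks are the 2631 highest by signal in their list pooled from both replicates. A peak did not need a counterpart in each replicate's own list, though 2566 had one in both. In the optimal list, 15 summits lay within 5000 bp of 6 genes. Of these, lin-14 had 6, lin-28 and lin-41 had 3 each, and hbl-1, lin-46 and daf-12 had 1 each. Neither lin-42 nor lin-29 had one. Having at least 1 optimal summit at this distance was common, since 30.0% of all protein-coding genes (5999 of 19973) did. At least 3 were found at 1.57% of all genes (314), the level reached by 3 of the 8. At least 6 were found at 0.0501% (10 genes, of which lin-14 is 1), and 4 genes had more than lin-14. No test was made of these counts, because the list is short, was fixed with earlier results of these data in view, and has no group to be compared with.

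**Figure D1:**
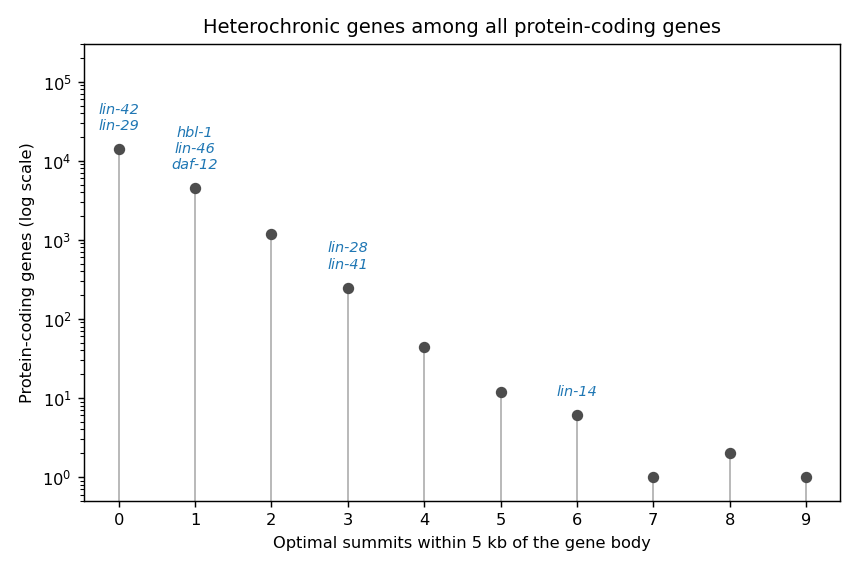
Number of protein-coding genes (vertical axis, log scale) by their number of optimal summits within 5 kb of the gene body (horizontal axis), with the heterochronic genes written above their number. Most genes have 0, lin-14 stands at 6, where 6 genes lie in all, and lin-28 and lin-41 at 3.

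Length alone gives a gene more room, so density was read beside the counts. The 8 gene bodies with their flanks cover 186 kb and held 0.804 optimal summits per 10 kb. The windows of all protein-coding genes, built in the same way, held 0.3 per 10 kb, and the nuclear chromosomes as a whole 0.262. Without lin-14 the other 7 genes held 9 summits, or 0.576 per 10 kb. By gene the density was highest at lin-28 (2.28 per 10 kb), then lin-14 (1.98) and lin-41 (1.7). The genes lin-46 (0.842) and hbl-1 (0.64), with 1 summit each, came next, while daf-12 (0.244), the longest gene of the list, was below the value of all gene windows.

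As a group these summits leaned to the lower part of the optimal list, whose median rank is 1316. Ranked by the authors' signal value within the optimal list, they ran from 407 to 2615 with a median of 1781, and 4 of the 15 stood among the upper 1315 peaks. The 4 were at lin-14 (ranks 407 and 1225), lin-28 (868) and lin-41 (1235). By position, 6 lay upstream of the gene, 6 inside it and 3 downstream. Promoters, taken as 500 bp around the 5′ end of any protein-coding gene, held 4 of the 15 (26.7%), against 52.2% of all optimal summits. Introns held 6 (40.0%, against 18.6%), intergenic sequence 4 (26.7%, against 23.8%) and a non-coding RNA gene 1. Of the 6 in introns, lin-14 alone held 4. Another, in lin-28, lay 3 bp from a downstream start of that gene, since promoters were read from outermost 5′ ends only. Taking only the outermost annotated 5′ end of each gene, another gene's was nearer than the member's own at 5 of the 15. One of these, in lin-14, lay 1013 bp from a downstream start of that gene. Counting a summit only for the gene with the nearest 5′ end, within 5000 bp, left 5 of the 8 genes with 7 summits, against 10.7% of all protein-coding genes with at least 1.

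**Figure D2:**
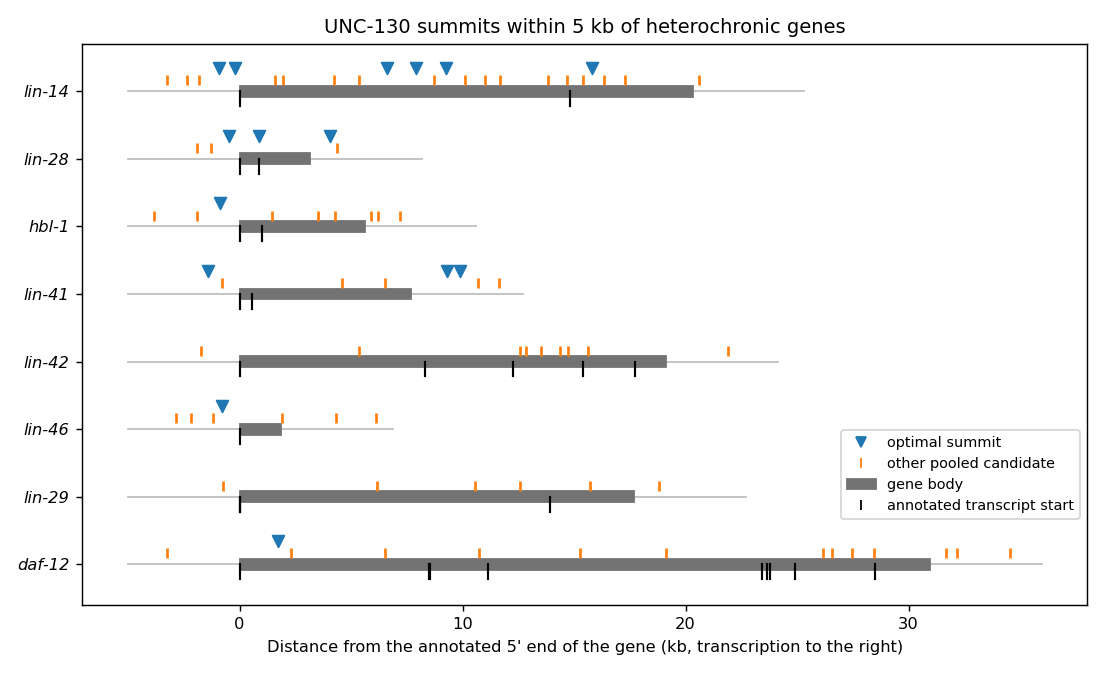
Each row is a gene drawn from its annotated 5′ end (0 on the horizontal axis, kb) in the direction of transcription, with 5 kb flanks as a thin line, the body as a bar and annotated transcript starts as black ticks. Blue triangles are the 15 optimal summits and orange ticks the other 67 pooled candidates; lin-14 carries 6 triangles, and lin-42 and lin-29 carry ticks alone.

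The gene lin-14 encodes the BEN-domain transcription factor that specifies fates of the L1 stage, and its body spans 20312 bp of chromosome X (11465560 to 11485871, plus strand) with 2 annotated transcript starts, 14801 bp apart. Its 6 optimal summits extended over 16740 bp, in 3 groups. A pair lay upstream, at 926 and 196 bp before the 5′ end. A cluster of 3 lay in intron 3, which is 11174 bp long, at 6596, 7915 and 9262 bp after the 5′ end, spaced by 1319 and 1347 bp. The last lay in intron 4, at 15814 bp, which is 1013 bp after the downstream start. By the outermost 5′ end of each gene, the one nearest to that summit was that of spp-9, 6410 bp away. Among genes at least as long as lin-14, 1.07% (2 of 187, lin-14 included) had 6 or more.

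The highest lin-14 summit was the one nearest to its 5′ end (peak X 11465239 to 11465488). Its signal was 61.2, rank 407 of 2631, and it ranked 1239 in the list of replicate 1 and 123 in that of replicate 2. To set the replicates side by side, each optimal peak that overlapped a peak of both was given its percentile of signal in each (100 is the highest), and this one stood at 53.2 and 95.3, or 74.3 ± 29.7 (SD, n = 2). It was thus near the middle of the optimal peaks in replicate 1 and near the top in replicate 2.

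The other lin-14 summits were lower, and the replicates placed them differently. In intron 3, the summit at 6596 bp (signal 30.7, rank 1781) ranked 1184 in replicate 1 and 3758 in replicate 2. The one at 9262 bp (38, rank 1225) ranked 1840 and 2750. Between them, the summit at 7915 bp (23.6, rank 2615) ranked 3276 and 2743 and lay just inside the authors' threshold, whose lowest signal was 23.5. The distal upstream summit (31.8, rank 1680) ranked 1342 and 2563, and the intron 4 summit (26.4, rank 2263) ranked 3622 and 5334. Mean percentiles of these 5 ran from 8.32 ± 1.3 in intron 4 to 38 ± 16.5 at the distal upstream site (SD, n = 2). Neither replicate alone gave the count of 6. Among the 2631 highest peaks of replicate 1 lin-14 had 4. Among those of replicate 2 it had 2, the upstream pair, which were also among the 4 of replicate 1. The summits at 7915 bp and in intron 4 stood outside the 2631 highest peaks of both replicates.

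The sequences under the 6 summits of lin-14 are shown because they are the largest set of sites at 1 gene of the list. Each is 101 bp centred on the summit, on the plus strand of WBcel235, read from RefSeq's copy of that assembly, and none overlaps an exon of a protein-coding gene. Capitals mark CACATG on either strand (CATGTG where it lies on the minus strand), a word picked out after these sequences had been seen.
lin-14 distal upstream, chrX:11464584-11464684: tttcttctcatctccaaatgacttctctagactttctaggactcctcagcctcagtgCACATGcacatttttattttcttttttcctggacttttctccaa
lin-14 proximal upstream, chrX:11465314-11465414: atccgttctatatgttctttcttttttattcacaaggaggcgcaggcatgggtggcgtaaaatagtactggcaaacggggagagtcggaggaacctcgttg
lin-14 intron 3, upstream site, chrX:11472106-11472206: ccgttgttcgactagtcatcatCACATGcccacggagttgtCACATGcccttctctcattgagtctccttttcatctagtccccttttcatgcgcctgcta
lin-14 intron 3, middle site, chrX:11473425-11473525: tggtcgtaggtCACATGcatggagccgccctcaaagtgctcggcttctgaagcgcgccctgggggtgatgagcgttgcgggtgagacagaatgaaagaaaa
lin-14 intron 3, downstream site, chrX:11474772-11474872: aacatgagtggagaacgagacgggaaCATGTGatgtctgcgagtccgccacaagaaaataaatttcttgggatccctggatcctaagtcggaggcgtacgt
lin-14 intron 4, chrX:11481324-11481424: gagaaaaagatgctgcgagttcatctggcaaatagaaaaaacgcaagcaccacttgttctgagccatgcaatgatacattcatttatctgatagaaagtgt

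The word CACATG lay at 4 of the 6 lin-14 windows, in 5 copies, and at all 3 sites of intron 3. None of the 9 summits at the other genes had it. Over all optimal summits, 249 of 2631 windows of the same length (9.46%) held it. Since the word was read off these windows, the count describes them and supports nothing further.

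Forkhead proteins bind variants of a short core, here searched as TGTTTAC or TGTTTGC on either strand. Within 50 bp of the summit, neither was found at any of the 15 heterochronic summits, against 10.6% of all optimal summits (280 of 2631). A count of 0 of 15 allows a share of up to roughly 20% (3 summits of 15). That limit takes the summits as independent, though 6 of them lie at lin-14. A share like that of the whole list could thus not be told apart at this number. Over the full width of the peaks, a single TGTTTGC was found, on the minus strand 78 bp from the summit of the lin-46 peak (V 12967970 to 12967976). These letters being missing from a window says nothing of whether the factor bound there. G and C made up 47.5% at the median of the 15 windows (range 38.6 to 62.4), beside 46.5% over all optimal summits.

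The gene lin-28 encodes an RNA-binding protein that keeps let-7 low and holds cells in the fates of the L2 stage. It lies on chromosome I (8407630 to 8410804, minus strand), is 3175 bp long and had the densest optimal summits of the list. The highest (signal 45.1, rank 868) lay in intron 1, 881 bp after the 5′ end and 3 bp before the start of the shorter annotated transcript. It ranked 1880 in replicate 1 and 739 in replicate 2, at percentiles of 33.4 and 72.3 (52.8 ± 27.5, SD, n = 2). A summit 481 bp upstream of the gene (28.5, rank 1996) ranked 2744 and 1858. The summit downstream of the gene (30.7, rank 1775) ranked 1136 and 3257, and lay 68 bp upstream of the 5′ end of the neighbouring gene F02E9.1, so it is closer to that gene than to any start of lin-28. Of the 3, replicate 1 was the higher at the downstream summit and replicate 2 at the others. In the highest 2631 peaks of replicate 1 alone lin-28 had 2, and in those of replicate 2 alone it had 3, of which 1, at 1277 bp upstream (rank 2233), was not an optimal peak.

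Just upstream of hbl-1, which encodes a zinc finger protein related to Drosophila Hunchback and acts in the L2 stage, lay a single optimal summit. It was 894 bp before the 5′ end (peak summit X 5821248, gene 5822142 to 5827755, plus strand), with signal 29.1 and rank 1936. The replicates ranked it alike and low, 3872 and 3892, at percentiles of 7.95 and 12.9 (10.4 ± 3.5, SD, n = 2). It was therefore outside the highest 2631 peaks of either replicate. A candidate 1909 bp upstream just missed the optimal list (pooled rank 3085, signal 20.7) and ranked 5776 in replicate 1 and 1433 in replicate 2. In replicate 2 the more distal of these positions was thus the higher, and in replicate 1 the nearer one.

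LIN-41 is an RNA-binding TRIM-NHL protein, and its gene (I 9334800 to 9342496, minus strand) had 3 optimal summits, none of them in the gene body. The one upstream, 1416 bp before the 5′ end, had signal 27.6 (rank 2101). The other two lay 577 bp apart past the 3′ end, at 1593 and 2170 bp, with signals of 30.6 (rank 1789) and 37.9 (rank 1235). The more distant of these fell in a non-coding RNA gene, C12C8.8, and the nearest protein-coding 5′ end to both was that of cbl-1, 5350 and 4773 bp away. All 3 had a higher percentile in replicate 2 than in replicate 1. The upstream summit ranked 4231 in replicate 1 and 985 in replicate 2, at percentiles of 6.59 and 64. The more distant downstream one ranked 3498 and 486 (9.94 and 81.4), and the nearer one 3016 and 1584 (13.4 and 45.9). Accordingly lin-41 had 3 summits among the 2631 highest of replicate 2 and 0 among those of replicate 1. All 3 did overlap peaks of replicate 1, but below that cut. Whether the place of lin-41 among the genes with several summits depends on replicate 2 was not tested.

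For lin-42, which encodes a Period-related protein and spans 19124 bp on chromosome II (1233236 to 1252359, minus strand) with 5 annotated starts, no optimal summit was found within 5000 bp. The pooled list of 30000 candidates, which by its deposited name also holds background, had 9 summits there, or 3.09 per 10 kb, beside 3.08 over the windows of all protein-coding genes. The highest lay in an intron 5361 bp after the 5′ end (pooled rank 3107, signal 20.5) and ranked 2204 in replicate 1 and 8429 in replicate 2. A further 2 candidates overlapped a peak of both replicates: 1 lay 237 bp after the fourth start (pooled rank 4681, ranks 5348 and 6780) and 1 lay 303 bp after the third (4884, ranks 9279 and 5541). Each of the 3 ranked below the 2631 highest in at least 1 replicate.

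The zinc finger gene lin-29, of the EGR family, carried the fewest pooled candidates per length of the 8 genes, while lin-42 (2.4 per 10 kb, against 2.53 at lin-29) was lowest in the list of replicate 1 and daf-12 (1.71, against 1.8) in that of replicate 2. It spans 17702 bp on chromosome II (11917642 to 11935343, minus strand) and had 0 optimal summits and 6 pooled candidates, or 2.17 per 10 kb. The highest of these (pooled rank 4912) lay past the 3′ end in the promoter of hmg-12 and had a peak in replicate 1 (rank 2558) and none overlapping it in replicate 2. Only 1 of the 6 overlapped a peak in both replicates, an intron candidate at pooled rank 24840. Within 1000 bp upstream of its first start lay 1 candidate (732 bp, pooled rank 18443). A lack of optimal summits was not unusual for genes of this size: of the 272 protein-coding genes at least as long as lin-29, 48.5% had at least 1.

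LIN-46 is related to gephyrin and MoeA proteins, and its gene (V 12968855 to 12970730, plus strand), the shortest of the list at 1876 bp, had 1 optimal summit. It lay 804 bp upstream (signal 27, rank 2176) and only 69 bp upstream of the 5′ end of R186.8, which is transcribed the other way. The replicates ranked it 1725 and 3123, at percentiles of 37.4 and 18.8 (28.1 ± 13.2, SD, n = 2). In replicate 1 alone a further peak stood among the 2631 highest (rank 2003), 1911 bp after the 5′ end of lin-46 and in the promoter of pnn-1, with no overlapping peak in replicate 2.

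The nuclear receptor gene daf-12, the longest of the list with 30968 bp (X 10635908 to 10666875, plus strand) and 9 annotated starts, also had 1 optimal summit. It lay in intron 1, 8353 bp long, 1742 bp after the 5′ end, with signal 31.6 and rank 1696. It ranked 4056 in replicate 1 and 684 in replicate 2, at percentiles of 6.98 and 74.3 (40.6 ± 47.6, SD, n = 2). It was thus low in replicate 1 and high in replicate 2. A candidate 2314 bp after the 5′ end, in the same intron, stood below the threshold (pooled rank 3638, ranks 3477 and 5671). The other 8 starts had no optimal summit near them. At 62.4% G and C, the daf-12 window was the richest of the 15 and is shown for comparison with those of lin-14, on the plus strand and with no CACATG.
daf-12 intron 1, chrX:10637600-10637700: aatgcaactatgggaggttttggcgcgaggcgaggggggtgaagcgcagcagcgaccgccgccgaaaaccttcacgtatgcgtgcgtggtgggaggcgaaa

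All 15 heterochronic summits had an overlapping peak in the lists of both replicates, as did 2566 of all 2631 optimal peaks, but their order differed between them. The percentile was higher in replicate 2 at 9 summits and in replicate 1 at 6, and over all optimal peaks with a peak in both it was higher in replicate 2 at 48.5% (1245 of 2566). Median percentiles were 16.5 in replicate 1 and 26.3 in replicate 2, both in the lower part of the optimal list. The highest percentile in replicate 1 was 57, at lin-28, while 4 stood between 72.3 and 95.3 in replicate 2, at lin-14, lin-28, lin-41 and daf-12.

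**Figure D3:**
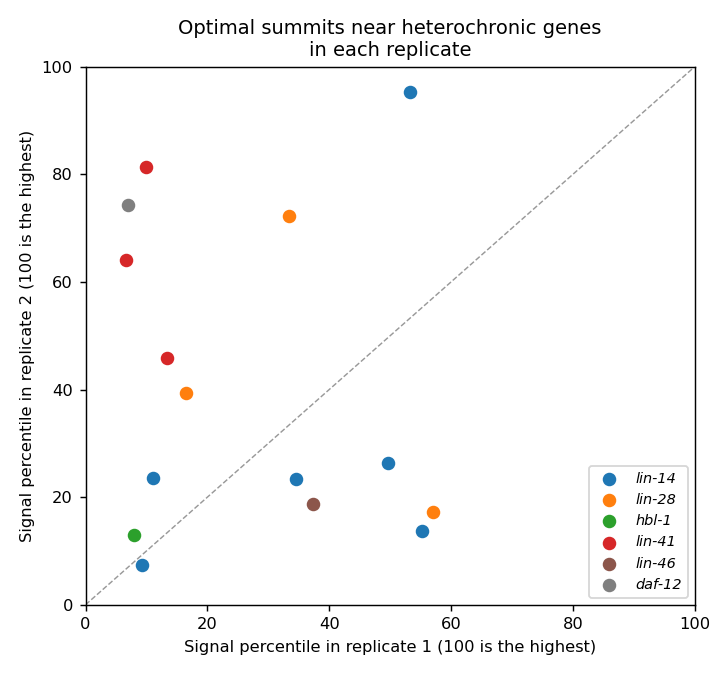
Signal percentile of each of the 15 optimal summits in replicate 1 (horizontal axis) and replicate 2 (vertical axis), among the 2566 optimal peaks found in both; the dashed line marks equal percentiles. The 3 lin-41 points and the daf-12 point lie far above the line. So do the lin-28 point at 33.4 and 72.3 and the highest point, the lin-14 summit at 53.2 and 95.3.

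Below the authors' threshold, every one of the 8 genes had candidates in the pooled list and in both replicates' lists, as did 84.5% of all protein-coding genes. The pooled list held 82 summits near the 8 genes, 67 of them below the threshold, and the lists of replicates 1 and 2 held 83 and 73. Over all 8 windows this came to 4.4 pooled candidates per 10 kb, beside 3.08 over the windows of all protein-coding genes. The density was highest at lin-14 (7.59 per 10 kb, 23 of the 82 candidates) and, in this pooled list, lowest at lin-29 (2.17). At lin-42 (3.09) and daf-12 (3.42) it was near the value of all gene windows. It ran from 4.52 to 5.89 at lin-28, hbl-1, lin-41 and lin-46. Of the 67 below the threshold, 19 (28.4%) overlapped a peak of both replicates, against 24.6% of such candidates in the whole list. At lin-14 there were 6 such candidates of 17, among them 1 that lay 122 bp before the downstream start (pooled rank 6901, ranks 5855 and 5574).

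**Figure D4:**
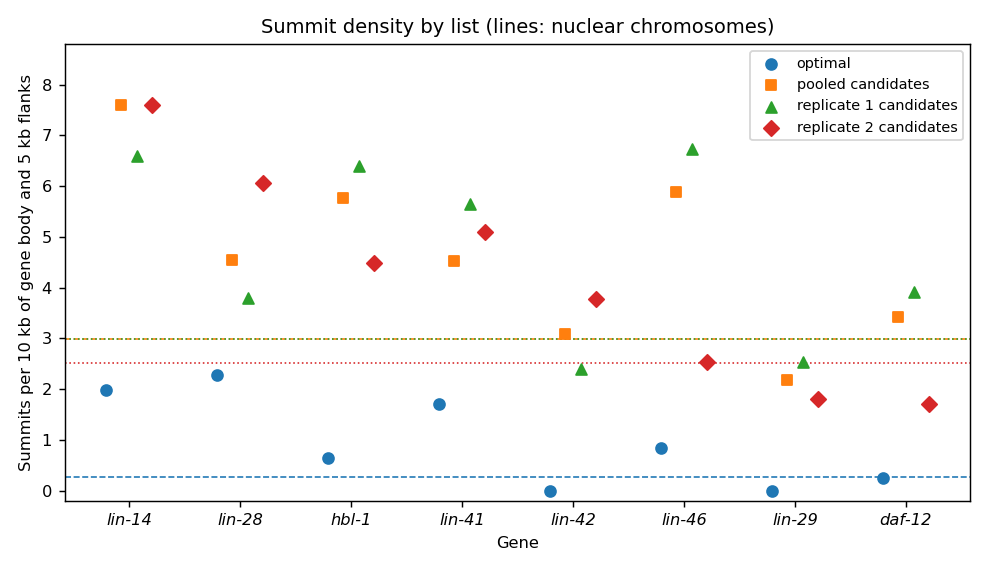
Summits per 10 kb of gene body and 5 kb flanks (vertical axis) for each gene (horizontal axis) in the optimal list (circles), the pooled list (squares) and the lists of replicate 1 (triangles) and replicate 2 (diamonds); lines in the same colours give the nuclear chromosomes, and those of the pooled list and replicate 1 coincide at 2.99. The genes lin-14, lin-28 and lin-41 stand highest in the optimal list, and lin-42 and lin-29 at 0.

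The genes whose pattern was most like that of lin-14, by the same number of optimal summits and then the closest gene length, were din-1 (18840 bp, II 11614770 to 11633609), scd-1 (21903 bp, X 12503887 to 12525789) and Y111B2A.12 (14452 bp, III 12609289 to 12623740). Their highest summits ranked 326, 368 and 231 in the optimal list, each above the highest of lin-14.

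Other genes of the pathway were read in the same way from a list of 35, of which 30 encode proteins and 5 microRNAs. At least 1 optimal summit lay within 5000 bp of 14 of the 30 (46.7%, beside 30.0% of all protein-coding genes). These shares were not matched for length: all 30 are longer than the median protein-coding gene (2027 bp), which widens their windows. For 8 of the 30 a summit was closest to their own 5′ end and within 5000 bp of it, beside 10.7% of all protein-coding genes. The gene with the most was din-1, which encodes a corepressor of DAF-12, with 6 summits, the highest 793 bp upstream (rank 326, replicate ranks 602 and 164). Also of the DAF-12 branch, daf-9, the cytochrome P450 that makes its ligand, had 1 (rank 1316), which lay in the promoter of bca-1 past the 3′ end of daf-9.

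Several of these genes had higher summits than any of the 8. The Pumilio-family gene puf-9 had one 271 bp upstream (rank 58, replicate ranks 30 and 268), and pash-1, the partner of Drosha in microRNA maturation, one 97 bp upstream (rank 259, ranks 229 and 854). The summits near the exonuclease gene xrn-2 (rank 41) and the TRIM-NHL gene nhl-2 (rank 75) were also higher than any of the 8, but lay closer to the 5′ ends of Y48B6A.1 (173 bp) and tag-340 (588 bp). Ranks from 515 to 786 were held by the highest summits of kin-20, a casein kinase gene, ain-1, which encodes a GW182-like protein of the microRNA complex, and the membrane-bound transcription factor genes myrf-1 and myrf-2. The highest of kin-20 (515) and myrf-2 (688) lay in introns and those of ain-1 (589) and myrf-1 (786) upstream, at 1035 and 342 bp. That of myrf-2, 5534 bp after its 5′ end, lay closer to the 5′ end of arrd-28 (4848 bp). The remaining ones, lin-66 (1289), sea-2 (1541), nhr-85 (1742) and pup-2 (2075), ranked lower. That of pup-2 lay past its 3′ end and closer to the 5′ end of hira-1 (739 bp). No optimal summit lay near the other 16, among them blmp-1, nhr-23, nhr-25, alg-1 and dcr-1. Of the microRNA genes, let-7 had 1, 1854 bp upstream of its annotated 5′ end and 128 bp from that of C05G5.2 (rank 656, replicate ranks 334 and 891), and lin-4, mir-48, mir-84 and mir-241 had none.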

How the data were processed

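The data were 4 ce11 peak lists in narrowPeak layout from ChIP-seq of 2 replicates of whole L1 larvae. Per the deposited notes, the optimal list was derived by the irreproducible discovery rate from a pooled list and from both replicates' lists, which hold peaks and background. The lists held 2631, 30000, 30000 and 25234 peaks. The deposited signal value of each peak is the authors' own, on a scale that no header or label states, and served only to rank peaks within 1 list. Which aligner and peak caller were run, and in which versions, is not given in the sources used here. Read depth is unknown, so no interval on reads was computed. Per the labels, the replicates are biological. The ce10 lists were not used.

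Summits (column 2 plus column 10, counted from 1) were placed on Ensembl release 115 gene models (WBcel235), after checking that no peak passed a chromosome end. A peak was matched to a replicate's peak by an overlap of at least 1 bp, taking the highest. MicroRNA genes were matched by WormBase ID. Classes were assigned in the order promoter, coding exon, UTR, intron, non-coding RNA gene, intergenic. Counting was tested on simulated data. Python 3.11.15, pandas 2.3.3 and numpy 2.4.6 were used. Described by rule were all 8 members, pathway genes of the list with an optimal summit, and the 3 genes most like the member with the most summits. Members and lists were chosen with earlier results of these data known, and CACATG after the sequences were seen.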

Additional observations from a re-analysis of the deposited data

How the results depend on the processing

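The number of genes with an optimal summit, 6 of 8, stayed between 5 and 6 with reaches of 1000, 2000 and 10000 bp, with any base of a peak in place of its summit, without peaks near short structured RNA genes, and with the nearest 5′ end alone. With either replicate left out, the 2631 highest peaks of the other were counted in place of optimal peaks. Each then gave 5 genes, but only lin-14 and lin-28 were in both sets. It was 3 with the gene body alone and 3 in the upper 1315 optimal peaks. The 15 summits became 6, 4 and, with the nearest 5′ end alone, 7, and were 10 with either replicate left out. The share of all protein-coding genes with at least 1 optimal summit, 30.0%, was 42.9% at 10000 bp, 19.5% at 2000 bp, 15.2% at 1000 bp, 3.03% in the gene body alone, 18.1% in the upper 1315 and 10.7% by the nearest 5′ end. It was 30.5% without replicate 2 and 27.9% without replicate 1. The forkhead core was at 1 summit within 100 bp in place of 0 within 50 bp. Within 100 bp this was 6.67% of the 15, beside 15.1% of all optimal summits (396 of 2631). By gene, 52 of 72 counts stayed within 1.5 times of the reported one. These include counts of 0 at lin-42 and lin-29, which could not change where fewer peaks or a shorter reach were used. Without replicate 2, lin-41, hbl-1 and daf-12 had 0 and lin-42 and lin-29 had 1 each, and without replicate 1, lin-46 had 0 and lin-14 had 2. The 1 peak of hbl-1 without replicate 1 was not an optimal peak. The cause of these differences was not tested. No paired analysis was possible because there was 1 group. The 2 replicates, of unknown depth, limit the precision of every count given by gene.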
